A study of Mus musculus with 6 samples.

Results

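Regulatory T cells (Tregs) are CD4+ T cells that restrain other immune cells. Foxp3, a forkhead transcription factor, defines the lineage, and it acts with the Ikaros-family factors Helios (Ikzf2) and Eos (Ikzf4). On the surface, Tregs carry the high-affinity chain of the interleukin-2 receptor (Il2ra, also called CD25), inhibitory receptors such as Ctla4 and Tigit, costimulatory receptors such as Icos, Tnfrsf18 (GITR) and Tnfrsf4 (OX40), and Lrrc32 (GARP), which displays latent TGF-beta. Open chromatin at these genes was compared between controls and mice undergoing high-altitude de-acclimatization (HADA). The 10 genes were Foxp3, Il2ra, Ctla4, Ikzf2, Ikzf4, Tnfrsf18, Tnfrsf4, Lrrc32, Tigit and Icos. A region was counted when the summit of a peak lay in the gene body or within 3 kb of an annotated start. This gave 24 of the 62876 regions of the series, at 9 of the 10 genes.

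The assay was ATAC-seq, which tags open DNA with adapters through the Tn5 transposase, applied to unsorted white blood cells from peripheral blood after red cell lysis. The labels and methods call these cells leukocytes, which include neutrophils, whereas the study's results text calls them mononuclear cells, which do not. There were 3 control libraries and 3 HADA libraries. The study's methods describe male C57BL/6j mice held for weeks in a hypobaric hypoxia chamber and then returned to normal oxygen (HADA), while the control mice stayed in normal oxygen. The methods give the age of the mice at purchase, and the labels give neither their age at sampling nor the day of recovery for these libraries, nor whether a library came from a single mouse, so p-values measure the spread between these libraries. Tregs are a small part of blood leukocytes, and many of the genes are also used by other leukocytes, so a change in the number of Tregs, in the number of other cells and in the chromatin of each cell cannot be told apart here. The lists held 34045 to 45799 peaks on the main chromosomes. Depth is represented by the background pileup of each library, which was 1.69 to 2.05 in controls and 1.99 to 2.34 in HADA libraries. Heights are given as the summit pileup, the number of reads over the summit, and a region without a peak in a list did not pass the caller's threshold there. The smallest summit pileup in a list was 7 to 9, but the threshold depends on the local background, so a region without a peak can hold more reads than that.

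The regions that passed the test were 2 intronic regions of Il2ra and the start of Tnfrsf18, all higher in HADA. Lrrc32 had the widest gap in pileup between the groups but lacked a peak in 1 control list. The regions nearest to the starts of Foxp3, Ikzf2 and Tigit did not pass the test. Of the 24 regions, 8 had a peak in all 6 lists and could be compared without missing values. limma on log2 summit pileups, centred on the median shared region and adjusted over all 23970 shared regions, called 3 of the 8 higher in HADA and 0 lower. At an unadjusted p under 0.05 there were 4 higher and 0 lower, beside 23.8% and 29.4% of all shared regions. Among all shared regions 18.4% were called higher and 24.5% lower, so 42.97% of calls were higher. After division by the background pileup 64.65% of calls were higher, and 4 of the 8 regions were called higher (32.2% of all shared regions) and 0 lower. The median log2 difference of the 8 regions was 0.35, beside −0.040 over all shared regions. With normal scores of the fold rank, limma called 0 of the 8 higher (7.64% of all shared regions) and 0 lower (5.82%), with 3 higher and 0 lower at an unadjusted p under 0.05 (20.53% and 15.75% of all shared regions). A fit of the 44013 regions in at least 3 lists, with each missing value set to the smallest pileup of its list, called 7 of 16 regions higher, beside 23.4% of all regions tested. Regions missing from control lists entered that fit through the HADA lists, and their missing values were set low, so its calls are not used as support. The calls were sensitive to single libraries: without HADA 2 limma called 0 of the 8, with 3 higher and 0 lower at an unadjusted p under 0.05 (16.7% and 24.6% of all regions tested), and without HADA 1 or HADA 3 it called 1. Without HADA 2 the calls over all regions also fell, from 10279 to 4326.

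**Figure D1:**
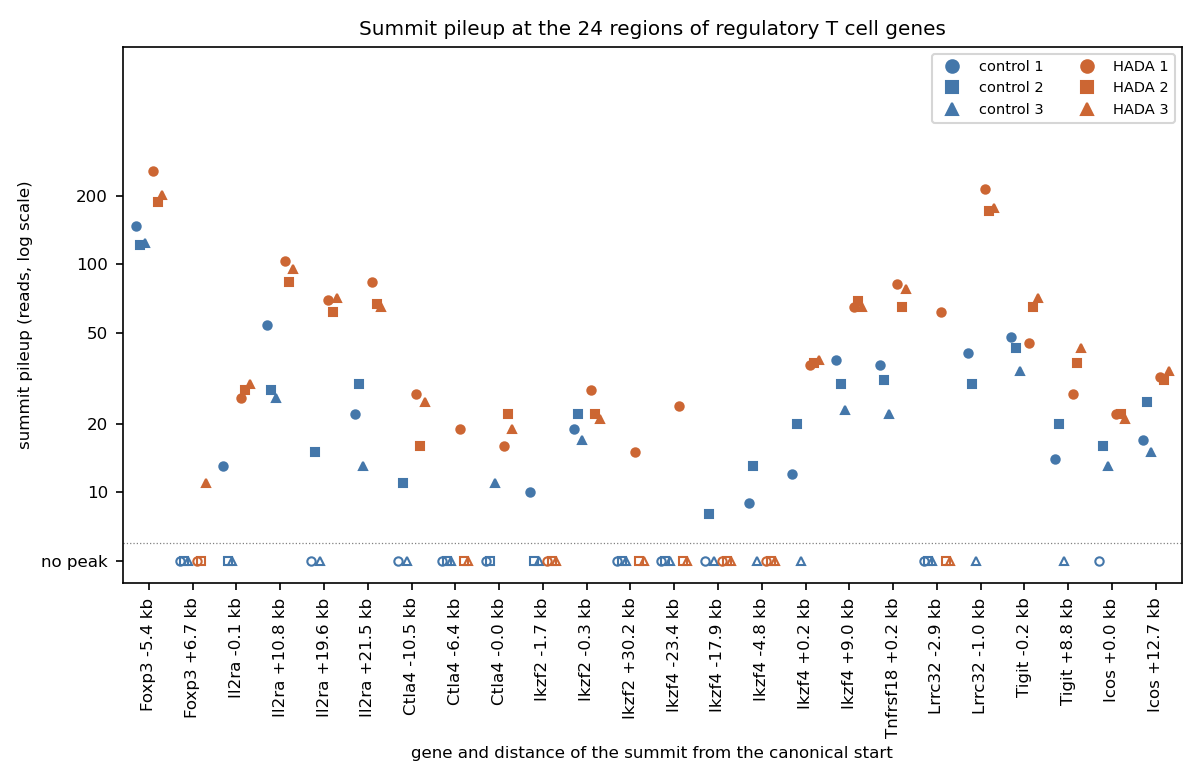
Summit pileup (reads, log scale) in each library at the 24 regions, named by gene and by the distance of the summit from the canonical start. Filled symbols are peaks, open symbols under the dotted line mark lists without a peak, blue is control and orange is HADA. At 16 regions all 3 HADA lists held a peak, and at 8 of these at least 1 control list did not.

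Il2ra, the alpha chain that gives the interleukin-2 receptor its high affinity, held 4 regions on chromosome 2. The sequences at the summits of the 3 intron regions are shown because limma called 2 of them and the remaining one was missing from 2 control lists. Each window holds the summit and 50 bases of GRCm39 on each side, on the strand of the gene. Capitals mark matches to AGGAAG, the core of ETS factors, or to CANCTG, a form of the E-box of basic helix-loop-helix factors, on either strand. The windows are at chr2:11658410-11658510, chr2:11667187-11667287 and chr2:11669046-11669146.
Il2ra intron, 10.8 kb: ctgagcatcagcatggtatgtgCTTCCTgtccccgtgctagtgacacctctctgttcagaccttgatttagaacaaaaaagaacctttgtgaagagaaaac
Il2ra intron, 19.6 kb: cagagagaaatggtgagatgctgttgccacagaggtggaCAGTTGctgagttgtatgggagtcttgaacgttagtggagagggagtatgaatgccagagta
Il2ra intron, 21.5 kb: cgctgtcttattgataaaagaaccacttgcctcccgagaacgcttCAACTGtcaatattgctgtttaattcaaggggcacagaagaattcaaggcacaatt

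The region farthest downstream, 21.5 kb from the start (11668690–11669423), had pileups of 22, 30 and 13 in controls and 84, 67 and 65 in HADA libraries. The groups did not overlap, and every HADA library lay above the highest control library. Relative to the median shared region it was 0.862 ± 0.0557 in HADA against 0.397 ± 0.141 in control libraries (SD, n = 3 each), a log2 difference of 1.18 ± 0.28 (SE, limma adjusted p = 0.0121, and 0.0532 without HADA 2). The region at 10.8 kb (11658036–11658855) had pileups of 54, 28 and 26 in controls and 104, 84 and 95 in HADA libraries. Control 1 was higher than the other control libraries, and all HADA libraries were above it. The log2 difference was 0.84 ± 0.25 (SE, limma adjusted p = 0.0265), and the adjusted p was 0.0643 to 0.0816 without control 2 or any single HADA library. Between them, the region at 19.6 kb (11666938–11667831) had a peak in control 2 only, with a pileup of 15, and pileups of 70, 62 and 71 in HADA libraries. With 2 control values missing, it was fitted only with filled values, a fit set aside above. The region at the Il2ra start (11647191–11647809), upstream of the gene by 148 bp, had pileups of 26, 28 and 30 in HADA libraries and 13 in control 1, with no peak in control 2 and control 3. All 4 Il2ra regions thus had a peak in every HADA list, while 2 of them lacked a peak in at least 1 control list.

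Lrrc32, which anchors latent TGF-beta on activated Tregs and is also made by platelets, had the widest gap in pileup between the groups. The region 0.96 kb upstream of the canonical start (chromosome 7, 98137333–98139131) had pileups of 215, 171 and 177 in HADA libraries. In control libraries they were 41 and 30, and control 3 had no peak. Its nearest start of another gene belonged to Gm71884, 191 bp from the summit. The lowest HADA pileup, 171, stood over the highest control pileup, 41, and with a control value missing the region was fitted only with filled values, a fit set aside above. Another region, 2.9 kb upstream, had a peak in HADA 1 only, with a pileup of 62. The summit window of the main region, at chr7:98137894-98137994, is shown with capitals for AGGAAG and for TGGAAA, the core of NFAT factors, on either strand.
Lrrc32 upstream: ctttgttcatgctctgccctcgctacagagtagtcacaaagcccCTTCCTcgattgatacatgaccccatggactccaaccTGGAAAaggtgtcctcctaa

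**Figure D2:**
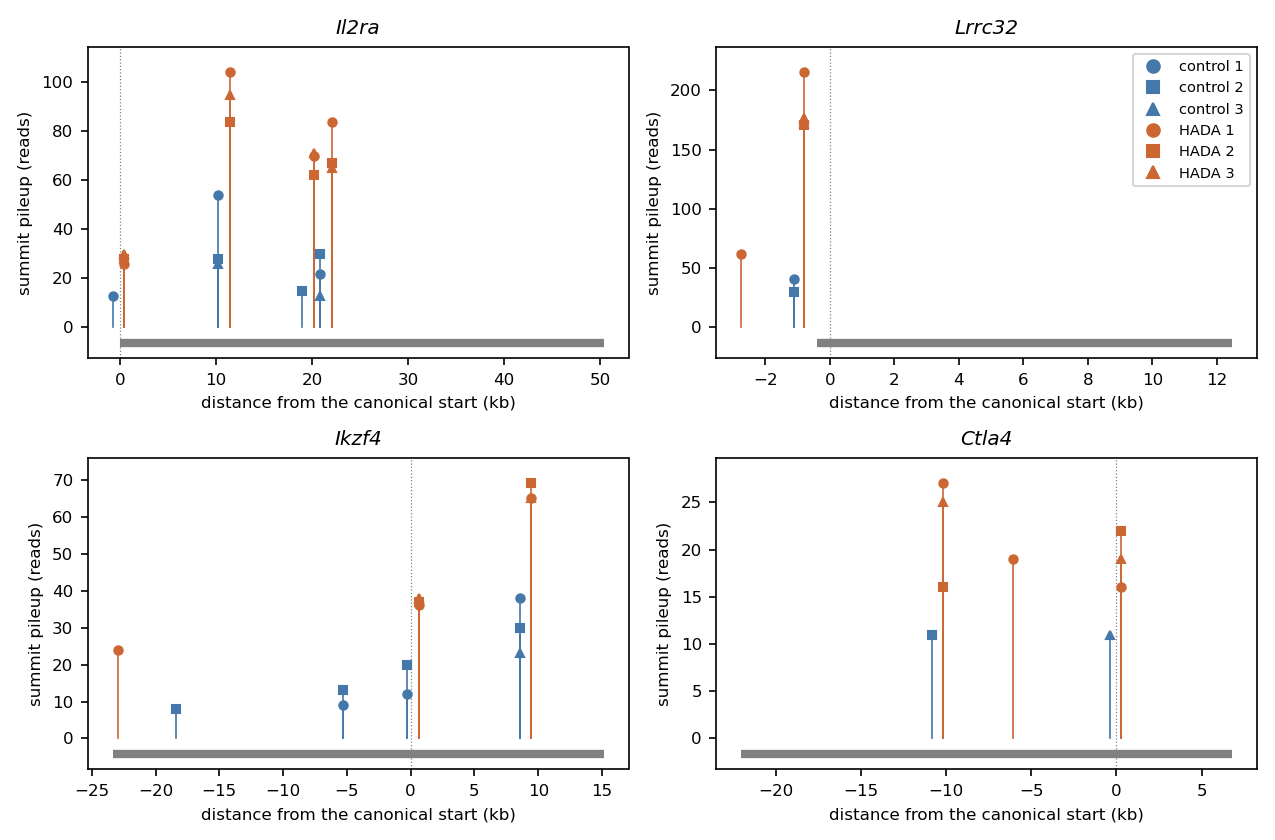
Summit pileup (reads) in each library against distance from the canonical start (kb, in the direction of transcription) at Il2ra, Lrrc32, Ikzf4 and Ctla4. Control stems (blue) are drawn slightly left and HADA stems (orange) slightly right of the summit, and the grey bar is the gene body. At Lrrc32 the HADA pileups of 171 to 215 stood over control pileups of 30 and 41.

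Tnfrsf18, the costimulatory receptor GITR, had 1 region, at its start (chromosome 4, 156110348–156111037), with the summit in an untranslated exon. The pileups were 36, 31 and 22 in controls and 82, 65 and 78 in HADA libraries. The groups did not overlap, and the log2 difference was 0.74 ± 0.21 (SE, limma adjusted p = 0.0214). The adjusted p was 0.0521 with the replicate number of the labels as a block and 0.0693 to 0.0844 without any single HADA library. Tnfrsf4, the costimulatory receptor OX40 that lies beside Tnfrsf18 on chromosome 4 (156098293–156101069), had no peak in its window in any list.

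Ctla4, the inhibitory receptor that competes for the ligands of Cd28, held 3 low regions on chromosome 1. At the start (60947922–60948426) the pileups were 16, 22 and 19 in HADA libraries and 11 in control 3, with no peak in control 1 and control 2. The region 10.5 kb upstream (60937505–60938858), in an intron of a longer annotated transcript, had pileups of 27, 16 and 25 in HADA libraries and 11 in control 2 only. The third region had a peak in HADA 1 only. No Ctla4 region had a peak in all 6 lists. The regions at the start and 10.5 kb upstream were fitted only with filled values, a fit set aside above. Icos is an inducible costimulatory receptor whose gene lies close to Ctla4. Its start region (61016742–61017485) had pileups of 22, 22 and 21 in HADA libraries and 16 and 13 in control 2 and control 3, and its intron region 12.7 kb downstream had 17, 25 and 15 in controls and 32, 31 and 34 in HADA libraries. Centred on the median shared region, the groups overlapped at the intron region, which differed by 0.18 ± 0.26 on the log2 scale (SE, limma adjusted p = 0.605).

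Among the transcription factors, Foxp3 had the tallest region of the list and little difference. This region (chromosome X, 7440090–7441260) had pileups of 147, 122 and 124 in controls and 257, 188 and 201 in HADA libraries, so the raw pileups did not overlap. Relative to the median shared region the groups overlapped, and the level was 2.57 ± 0.193 in HADA against 2.43 ± 0.182 in control libraries (SD, n = 3 each), a log2 difference of 0.084 ± 0.14 (SE, limma adjusted p = 0.650). Its summit lay 5.4 kb upstream of the canonical Foxp3 start and 596 bp from the first annotated one, but 8 bp from a start of Ppp1r3f and 252 bp from a start of the long noncoding RNA Flicr. It is therefore not a measure of Foxp3 alone. Within the Foxp3 gene body downstream of the canonical start, the lists held a single peak, in HADA 3, with a pileup of 11. It lay 6.7 kb from the canonical start, in an untranslated exon and 36 bp from another annotated Foxp3 start.

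Eos (Ikzf4) held 5 regions on chromosome 10. The intron region 9.0 kb downstream of the canonical start (128472496–128473537) had pileups of 38, 30 and 23 in controls and 65, 69 and 65 in HADA libraries. The groups did not overlap, but the log2 difference of 0.53 ± 0.22 did not pass the threshold (SE, limma adjusted p = 0.0736), and it passed after division by the background (0.91, limma adjusted p = 0.0138). The start region (128481217–128482518), 188 bp from a start of Gm26876, had pileups of 36, 37 and 38 in HADA libraries and 12 and 20 in control 1 and control 2. Control 3 had no peak there. The other 3 Ikzf4 regions were in 1 or 2 lists, with pileups of 8 to 24. The window of the intron region, at chr10:128472816-128472916, is shown because it held the only match to CTTTGAT, the motif of TCF7, among the 24 summits. Capitals mark that match and 1 to AGGAAG.
Ikzf4 intron, 9.0 kb: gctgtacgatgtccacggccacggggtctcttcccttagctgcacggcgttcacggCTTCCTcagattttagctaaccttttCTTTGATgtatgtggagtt
Helios (Ikzf2) had 1 region in all lists, at its start (chromosome 1, 69726100–69727329), with pileups of 19, 22 and 17 in controls and 28, 22 and 21 in HADA libraries. The raw pileups overlapped, with HADA 3 below control 2. Relative to the median shared region the levels were 0.328, 0.400 and 0.347 in controls and 0.304, 0.286 and 0.259 in HADA libraries, so every HADA library lay below every control library, and the centred log2 difference of −0.34 ± 0.23 did not pass the threshold (SE, limma adjusted p = 0.262). After division by the background it was 0.041.

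Tigit, an inhibitory receptor that binds the poliovirus receptor, held 2 regions on chromosome 16. At the start (43484269–43485343) the pileups were 48, 43 and 34 in controls and 45, 65 and 71 in HADA libraries, and HADA 1 lay within the control range. The centred log2 difference was −0.10 ± 0.26 (SE, limma adjusted p = 0.763), and it was 0.17 without HADA 1. The intron region 8.8 kb downstream (43475196–43475991) had pileups of 27, 37 and 43 in HADA libraries and 14 and 20 in control 1 and control 2, with no peak in control 3.

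**Figure D3:**
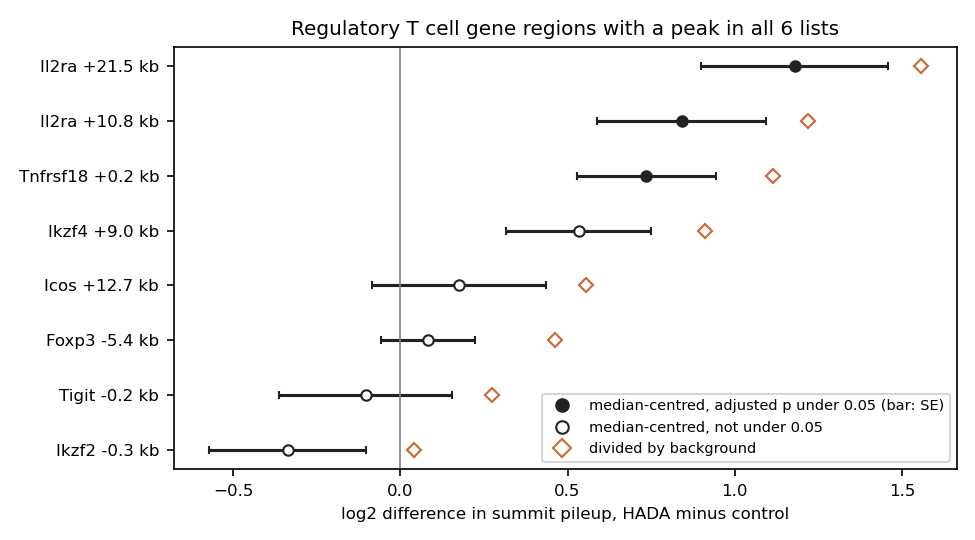
log2 difference in summit pileup (HADA minus control) at the 8 regions with a peak in all 6 lists. Circles with SE bars are centred on the median shared region, filled where the limma adjusted p was under 0.05, and open diamonds are divided by the background pileup. The differences ran from −0.34 at Ikzf2 to 1.18 at Il2ra, and division by the background moved each upward by 0.38.

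The presence of peaks leaned toward HADA by region, while the number of peaks per 10000 overlapped between the groups. Of the 24 regions, 13 were in more HADA than control lists and 3 in more control than HADA lists, where 35.5% and 22.7% of all regions did so. There were 8 regions in all 3 HADA lists that were missing from at least 1 control list (19.7% of all regions), and 0 regions with the reverse pattern (7.04%). No region was in 3 lists of a group and 0 of the other, a pattern that 7.01% of all regions had for HADA and 1.88% for control. The number of peaks at the 10 genes was 14, 16 and 10 in controls and 20, 16 and 17 in HADA lists. Per 10000 peaks of the library this was 3.95 ± 0.482 in HADA against 3.40 ± 0.473 in control libraries (SD, n = 3 each, two-sided exact permutation p = 0.3), so the groups overlapped. With 3 libraries a group, p cannot fall below 0.1.

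The summit pileups of all peaks at the 10 genes, each divided by the background of its library, summed to 284, 226 and 163 in controls and 537, 495 and 468 in HADA libraries. A list without a peak added 0, so these sums move with the number of peaks called (given above) as well as with their height. The ratio of the means was 2.23, with the groups apart (n = 3 each, two-sided exact permutation p = 0.1). Control lists without a peak, as at Lrrc32, Ctla4 and Il2ra, added 0 to these sums, so sums over all peaks are not used as support. By gene on this scale, every HADA library was above every control library for 7 of the 9 genes with a peak, a pattern of 50.2% of protein-coding genes with a peak, and its reverse, found for 5.47% of them, did not occur. Division by the median shared region, which takes out a shift of 0.38 on the log2 scale between the groups, left a difference of 73.8% with the groups apart. Over the 8 regions in all lists, on that scale, the sums were 6.57, 6.02 and 5.59 in controls and 7.58, 7.68 and 7.78 in HADA libraries, a difference of 26.7% with the groups apart (n = 3 each, two-sided exact permutation p = 0.1). By gene, on the scale of the median shared region, every HADA library was above every control library for 4 genes: Lrrc32, Ctla4, Il2ra and Tnfrsf18. This pattern was found in 34.9% of 15382 protein-coding genes with a peak, and its reverse in 16.2%. At Lrrc32, Ctla4 and Il2ra some control lists lacked a peak and added 0, which bears on the separation, so no ratio or test is given for them. The ratio for Tnfrsf18, with its peak in every list, was 1.65 (n = 3 each, two-sided exact permutation p = 0.1).

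Summed pileups at markers of blood cell types also differed, higher in HADA at T, B and NK cell genes and lower at neutrophil genes. On the background scale the summed pileup at 18 T cell genes, all with a peak, was 796 to 1188 in controls and 1612 to 1727 in HADA libraries, and limma called 8 of their 31 shared regions higher and 2 lower, with a median log2 difference of 0.32. At 12 B cell genes, all with a peak, the sum was 803, 483 and 122 in controls and 2021 to 2125 in HADA libraries. Of 9 shared B cell regions, 8 were called higher and 0 lower. At 10 NK cell genes, of which Klra8 and Klrk1 had no peak, the sum was 35.0 to 74.6 and 116 to 142. Of 3 shared NK cell regions, 0 were called. At 12 neutrophil genes, of which Ngp and Camp had no peak, the sum was 531, 334 and 909 in controls and 177 to 331 in HADA libraries. Of 9 shared neutrophil regions, 8 were called lower. At 10 monocyte genes, all with a peak, the sum was 272 to 409 and 210 to 287, with 7 of 9 shared regions called lower and 1 higher. Control 3 had the lowest B cell sum, the highest neutrophil sum, the shortest peak list and the lowest sum at the Treg genes. The part of the cell mix in the differences at the Treg genes was not tested. Divided by the T cell sum of the same library, the sum at the Treg genes was 0.239, 0.280 and 0.205 in controls and 0.321, 0.287 and 0.291 in HADA libraries, higher in HADA by 24.1%, with control lists without a peak at 0. Over regions in all 6 lists, for both sums, it was 0.232, 0.230 and 0.207 in controls and 0.248, 0.236 and 0.245 in HADA libraries, a difference of 9.10% with the groups apart (n = 3 each, two-sided exact permutation p = 0.1). Divided by the B cell sum it was lower in HADA (a mean of 0.240 against 0.717, ratio 0.335, groups apart, and 0.585 without control 3), and divided by the NK cell sum the groups overlapped (ratio 0.876). Divided by the neutrophil and monocyte sums it was higher, with ratios of 4.53 and 2.99 and the groups apart. Over regions in all 6 lists, for both sums, the ratios were 0.448 (B cell), 0.979 (NK cell), 3.26 (neutrophil) and 2.40 (monocyte). Without Lrrc32 and divided by the T cell sum, the sum at the Treg genes was 0.219, 0.262 and 0.205 in controls. In HADA libraries it was 0.2504, 0.237 and 0.242, and the groups overlapped (a difference of 6.45%).

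**Figure D4:**
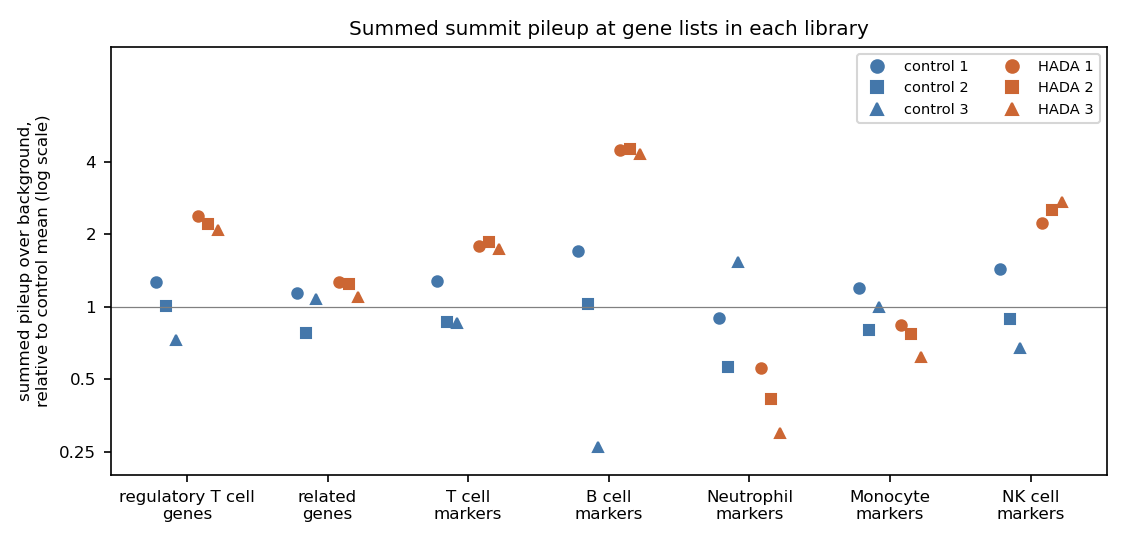
Summed summit pileup over background in each library at 7 gene lists, relative to the control mean of the list (log scale). Blue is control and orange is HADA, and symbols give the replicate. The HADA libraries lay above all control libraries for the Treg, T cell, B cell and NK cell lists and below them for the neutrophil list.

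Other genes of Treg biology were called in both directions, at shares near those of all shared regions. A list of 40 such genes, which shares Cd28 with the T cell list, held 247 regions, of which 107 were in all lists. Lag3, Ccr8 and Il1rl1 had no peak. limma called 18 higher and 24 lower, and 65 did not pass the test, where 18.4% and 24.5% of all shared regions were called higher and lower. Entpd1 alone held 8 of the lower calls, and Bach2 held 4 of the higher ones. The median log2 difference of the shared regions of the list was 0.075. Of the 35 genes with a shared region, 8 had only higher calls, 6 only lower calls, 4 both and 17 none. The regions with the largest rise were at Ikzf3 (the Ikaros-family factor Aiolos, 1.67, limma adjusted p = 0.00628), Bach2 (a repressor of effector programs, 1.52, limma adjusted p = 0.00982), Tgfbr2 (the TGF-beta type II receptor, 1.17), Il12a (a subunit of interleukin-12 and interleukin-35, 1.05) and Foxo1 (a forkhead factor, 1.02). The regions with the largest fall were at Foxo3 (−1.95, limma adjusted p = 0.00748), Runx1 (−1.86, limma adjusted p = 0.00698), Entpd1 (the ectonucleotidase CD39, −1.76), another region of Tgfbr2 (−1.55) and Ebi3 (the other subunit of interleukin-35, −1.18). At Ikzf3 the pileups were 26, 21 and 11 in controls and 97, 87 and 84 in HADA libraries. At Entpd1 they were 192, 220 and 459 in controls and 197, 91 and 102 in HADA libraries, so there HADA 1 lay within the control range before scaling.

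No single motif was common to the 24 summit windows (50 bases on each side), which were searched on both strands for 11 motifs. The E-box form CANCTG was in 7 of the 24, beside 24.4% of all 62876 regions, and AGGAAG was in 6, beside 16.6%. RUNX (TGTGGT, 9.44% of all regions) and NFAT (TGGAAA, 9.17%) were in 2 each. STAT (TTCNNNGAA, 3.08%), TCF7 (CTTTGAT, 1.25%) and NRF2 (TGACNNNGC, 3.98%) were in 1 each. The forkhead motif TGTTTAC, found in 1.24% of all regions, was in 0 of the 24. The AP-1 motif TGANTCA (2.77%) was in 0 as well. The CREB motif TGACGTCA (0.286%) and the GATA motif (3.71%) were not found either. For GATA the letters searched were AGATAA. The 50 bases at each of the 24 summits occurred once in the genome.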

How the data were processed

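Peak lists of 6 ATAC-seq libraries were used. Trimmomatic, Bowtie2 (genome build GRCm39) and Picard were used by the authors for trimming, alignment and removal of duplicates, and they called peaks in each library by itself with MACS2. The caller's options and any shift for the Tn5 insertion are not given in the sources used here. The deposited lists hold a score, the fold enrichment of each summit over local background, and its p-value and q-value as −log10. The whole-number summit pileup and its background were solved from the deposited fold and −log10 p-value for 100% of peaks within a relative tolerance of 0.0001. Total read counts were not analysed here.

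Peaks on 21 main chromosomes sharing 1 bp were merged into regions, and the tallest peak of a library gave its value. Genes and starts came from the GENCODE annotation of GRCm39, matched by symbol, and coordinates are 1-based. The summit is column 2 plus column 10 of a list. log2 pileups centred on the median shared region were compared with limma 3.58.1 with a mean-variance trend in R 4.3.3, with Benjamini-Hochberg adjustment over all shared regions at 0.05, after a test on simulated data. The pileup was used and not the fold because the fold drops where the neighbourhood is open. Sums and counts were compared by two-sided exact permutation tests in Python 3.11.15. By the rule for named genes all 10 genes were named, and values in every library were given for the region nearest to each start, those past the threshold and those in 3 lists of a group and 0 of the other. Other regions given in full were chosen after their values had been seen. Windows of 50 bases on each side of the median summit were searched for motifs, and windows over annotated UTRs are not shown. The rule for sequences gave the Il2ra regions at 10.8 and 21.5 kb, and the other windows were added after values had been seen. The members, gene lists and tests were chosen with earlier results of these data known. The related genes named are, at most 1 region a gene in each direction, the 5 with the largest difference among those past the threshold.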

Additional observations from a re-analysis of the deposited data

How the results depend on the processing

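Of the 8 Treg gene regions tested by limma, the number called higher in HADA was 3, and it was 0 with normal scores of the fold rank (3 higher and 0 lower at an unadjusted p under 0.05), 6 of 17 with 20 kb added on both sides of each gene and 7 of 16 with regions in at least 3 lists and missing values filled. The last adds regions that could enter through the HADA lists alone. It ranged from 0 to 4 when a library was left out, with the lowest count without HADA 2. The number called lower was 0 under every setting run. The number of HADA-only regions, 0, became 3 with a −log10 q of at least 5 (8.59% of all regions, beside 7.01%). It was 1 with equal numbers of the strongest peaks per library (5.84%) and 1 with 20 kb added (7.01%). Without single libraries it ranged from 0 to 2 (7.54% to 11.6%). The number of control-only regions was 0 (1.88% of all regions), and 1 without control 3 only (3.63%). The small differences changed sign: Foxp3 was −0.19 by fold rank, Ikzf2 was 0.041 and Tigit 0.27 after division by the background, and Tigit ran from −0.23 to 0.17 without single libraries, positive without HADA 1 only. The causes were not tested. Over the 8 regions, 84 of 102 alternative values kept direction and side of the threshold. The summed pileup and the number of peaks per 10000 were higher in HADA under the settings run, the latter with the groups apart for 5 of them, except that the summed pileup was lower relative to the B cell sum (ratio 0.335) and the NK cell sum (ratio 0.876). The replicate numbers share no stated animal or batch, and deviations of same-numbered libraries correlated at −0.080, 0.075 and −0.38. With the replicate block, limma called 2 regions higher (Tnfrsf18 lost its call), and the permutation p was 0.5 for the number of peaks and 0.25, the smallest possible, for the summed pileup. The settings without regions near the start of another gene, without Lrrc32, over regions in all lists and relative to the T cell sum were chosen after seeing the data. Over regions in all 6 lists alone the difference in summed pileup, 123%, was 62.4%, and 26.7% relative to the median shared region. Depth limits the low regions, and the threshold of calling was local: a pileup of 8 was called 17.9 kb upstream of Ikzf4, while a pileup of 24 at 23.4 kb passed with a −log10 q of 1.47, so a missing peak can hold more than 10 reads.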

Other observations

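The flanks of the Treg genes, within 20 kb of the gene but outside the windows above, held 21 regions, and 9 of these were in every list. limma called 3 of these higher in HADA and 0 lower, with a median log2 difference of 0.37, beside 18.4% higher, 24.5% lower and a median of −0.040 over all shared regions. The largest was 7.5 kb downstream of the Ctla4 start, past the end of the gene (chromosome 1, 60955222–60956235), with pileups of 43, 30 and 17 in controls and 126, 120 and 119 in HADA libraries, a log2 difference of 1.49 ± 0.27 (SE, limma adjusted p = 0.00668). It was taller than any region within Ctla4. Upstream of Il2ra by 5.5 kb, near a start of Gm74873, the pileups were 49, 46 and 19 in controls and 117, 118 and 119 in HADA libraries (log2 difference 1.13 ± 0.30, SE, limma adjusted p = 0.0173). The region beside it, 6.9 kb upstream of Il2ra, had pileups of 41, 32 and 40 in HADA libraries and 14 in control 1 only. The remaining call was at the start of Suox, beside Ikzf4 (0.70, limma adjusted p = 0.0093), while the start of Rps26 on the other side of Ikzf4 differed by −0.34 (limma adjusted p = 0.175). Upstream of Lrrc32 by 20.3 kb a low region was in all 3 HADA lists, with pileups of 12, 13 and 15, and in no control list. Around Tnfrsf4, which had no peak of its own, and the neighbouring Tnfrsf18, whose start was nearer to 3 of them, 4 flank regions were in all lists and none was called, with log2 differences of 0.14 to 0.47 (limma adjusted p from 0.0875 to 0.721). After division by the background, where 32.2% of all shared regions were called higher, 3 of these 4 passed (limma adjusted p = 0.0481, 0.0486 and 0.0156). At an unadjusted p under 0.05, the flanks held 4 higher and 0 lower regions, beside 23.8% and 29.4% of all shared regions.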
